A study of Mus musculus with 12 samples.

Results

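Interferon-stimulated genes were followed through mouse colon tumours and normal colon by RNA sequencing. Listed by symbol with earlier results of these data known, the set holds 48 genes of the 24054 gene symbols in the count files. Of these, 37 are counted here as type I genes, which the interferons alpha and beta induce, and 11 as type II genes, which interferon gamma is best known to induce: the guanylate-binding proteins, the immunity-related GTPases, the chemokines Cxcl9, Cxcl10 and Cxcl11, and Ido1. Many genes of both classes answer to both kinds of interferon. There were 12 libraries in 3 groups of 4. BTPRZ-T is tumour of the genotype BrafV600E;Tgfbr2-/-;Rnf43-/-/Znrf3-/-;p16 Ink4a-/-, BT-T is tumour of the genotype BrafV600E;Tgfbr2-/-, and N is wild type normal colon. All 3 groups carry the strain label NSG, and the tumours grew from edited colonic organoids engrafted into mice, so each tumour library mixes organoid-derived cells with host cells. NSG mice lack mature T, B and NK cells, the main makers of interferon gamma, and still have macrophages and neutrophils. The labels give no treatment, age or number of animals and do not tell if each library stands for its own animal, so p-values measure the spread between these samples. Each tumour genotype was compared with normal colon, and the 2 tumour genotypes with each other.

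Interferons alpha and beta bind the receptor pair IFNAR1 and IFNAR2, whose kinases JAK1 and TYK2 activate a complex that holds STAT2 and IRF9 and binds the interferon-stimulated response element in the promoters of type I genes. Interferon gamma acts through IFNGR1 and IFNGR2 with JAK1 and JAK2, and its signal ends at the gamma-activated site. In the gut epithelium, interferon lambda acts through IFNLR1 and IL10RB on the same complex as the type I interferons, and healthy intestine keeps a low tonic level of these genes in response to its microbes.

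Promoters of 6 members are shown because they hold the letters through which this response is known to work, and because the members differed in the libraries: Isg15, Ifit1, Rsad2 and Igtp were lower in both kinds of tumour, whereas Gbp2 and Ddx58 were not called in any comparison. The sequences are RefSeq's on GRCm38.p6, from 250 bases before to 50 after the start of the gene, 5′ to 3′ on the gene's strand. They stand at chr4:156200769-156201068 (minus strand), chr19:34640639-34640938 (plus strand), chr12:26456403-26456702 (minus strand), chr11:58199306-58199605 (plus strand), chr3:142620413-142620712 (plus strand) and chr4:40239776-40240075 (minus strand). Capitals mark the paired GAAA motif, GAAA followed by any 2 bases and GAAA again, the core of the interferon-stimulated response element, searched on both strands (so also read as its reverse complement), and TTCNNNGAA, the letters of the gamma-activated site, which reads the same on both strands.
Isg15: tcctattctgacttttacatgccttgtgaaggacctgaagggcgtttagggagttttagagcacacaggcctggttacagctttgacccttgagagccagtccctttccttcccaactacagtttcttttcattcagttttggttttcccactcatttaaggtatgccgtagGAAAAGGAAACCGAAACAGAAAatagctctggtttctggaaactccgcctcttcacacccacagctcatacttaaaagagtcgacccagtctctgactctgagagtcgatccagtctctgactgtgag
Ifit1: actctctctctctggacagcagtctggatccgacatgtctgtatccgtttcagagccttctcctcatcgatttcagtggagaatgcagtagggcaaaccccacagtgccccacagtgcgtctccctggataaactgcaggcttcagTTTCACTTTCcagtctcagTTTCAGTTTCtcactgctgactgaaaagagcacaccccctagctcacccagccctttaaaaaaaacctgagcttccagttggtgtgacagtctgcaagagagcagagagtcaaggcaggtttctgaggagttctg
Rsad2: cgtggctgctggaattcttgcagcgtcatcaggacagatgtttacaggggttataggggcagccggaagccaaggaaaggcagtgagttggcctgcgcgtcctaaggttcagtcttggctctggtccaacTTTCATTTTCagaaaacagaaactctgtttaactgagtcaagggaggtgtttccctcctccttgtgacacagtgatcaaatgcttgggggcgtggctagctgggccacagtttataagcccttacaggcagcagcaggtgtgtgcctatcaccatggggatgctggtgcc
Igtp: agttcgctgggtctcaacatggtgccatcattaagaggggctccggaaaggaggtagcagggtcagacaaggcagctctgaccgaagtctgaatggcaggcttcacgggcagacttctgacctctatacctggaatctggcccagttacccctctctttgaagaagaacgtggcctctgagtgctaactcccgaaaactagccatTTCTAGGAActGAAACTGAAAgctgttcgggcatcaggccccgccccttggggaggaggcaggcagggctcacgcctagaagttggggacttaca
Gbp2: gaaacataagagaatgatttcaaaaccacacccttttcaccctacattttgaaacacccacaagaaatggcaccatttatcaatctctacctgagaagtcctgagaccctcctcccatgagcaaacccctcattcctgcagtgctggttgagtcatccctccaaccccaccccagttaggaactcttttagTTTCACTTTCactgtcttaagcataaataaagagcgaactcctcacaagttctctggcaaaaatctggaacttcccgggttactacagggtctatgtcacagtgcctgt
Ddx58: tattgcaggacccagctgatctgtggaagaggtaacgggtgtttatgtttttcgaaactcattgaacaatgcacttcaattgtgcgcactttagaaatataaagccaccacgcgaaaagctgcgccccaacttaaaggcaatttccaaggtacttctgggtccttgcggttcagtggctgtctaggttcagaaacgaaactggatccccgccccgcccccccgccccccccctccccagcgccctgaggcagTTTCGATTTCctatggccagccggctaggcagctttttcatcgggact
In the Isg15 window 3 matches of the paired GAAA motif overlap in a single run, at -78, -72 and -66 from the start, and in the Igtp window a match of each motif lies close to the other, at -45 (TTCNNNGAA) and -34 (paired GAAA). Windows were at hand for 35 of the 48 members. The first motif was found in 14 of 28 type I windows and in 6 of 7 type II windows (85.7%), against 3.99% of 27025 genes with a window of the same length. TTCNNNGAA was found in 7 of 28 type I windows (25.0%), in 2 of 7 type II windows (28.6%) and in 9.55% of all genes, and the motifs overlapped each other in 2 members, Bst2 and Ifitm3. Among type I genes, 6 of 11 windows of genes that fell in BT-T held the first motif, as did 8 of 17 windows of genes not called there. A match is a description of the letters.

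Gene reads came to 15732004 to 26052772 per library, and 14860 genes, with 47 of the 48 members, had enough reads to be tested. Cxcl11 did not. Levels are CPM, reads scaled to a common library size with TMM factors. The error of a mean (±) is the SD of its 4 libraries, and that of a log2 fold change is its SE. A gene was called at an adjusted p under 0.05 in edgeR's quasi-likelihood test. N replicate 2 stood apart from the other N libraries, with the lowest TMM factor (0.7702) and 14175 detected genes against 16152 to 16432 in the others, and BTPRZ-T replicates 1 and 4 also had few (14697 and 13450, against 16131 and 16438). Results are therefore also given without N replicate 2. The Y-linked transcript Ddx3y was above 1 CPM in 1 of 4 BTPRZ-T, 3 of 4 BT-T and 3 of 4 N libraries. Xist, which female cells make from the inactive X chromosome, was at 505 to 1549 CPM in BTPRZ-T and 95.84 to 1381 CPM in BT-T, against 1.094, 16.58 and 2.836 CPM in N replicates 1 to 3 and 1153 CPM in N replicate 4. The part of sex in the results was not tested.

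Many type I genes, among them Isg15, Ifit1, Ifit2, Rsad2 and Zbp1, were lower in both kinds of tumour than in normal colon, and edgeR called none of the 37 higher in either (DESeq2 called 1 higher in BTPRZ-T). In BTPRZ-T against N, 12 of the 37 fell, where 6.18% of all tested genes were called lower, 5.66% higher and 11.8% in either direction. In BT-T against N, 17 of the 37 fell, where 2.9% of all tested genes were called lower, 5.67% higher and 8.57% in either direction. The median log2 fold change of the type I genes was -0.89 in BTPRZ-T and -1.38 in BT-T, and that of all tested genes was -0.10 in each. In whole tissue, fewer cells of a type that expresses a gene and less RNA of it per cell cannot be told apart.

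Of the 11 type II genes, 10 were tested. In BTPRZ-T against N, Igtp fell (6.18% of all tested genes) and Ido1 rose (5.66%), and the median was -0.31. In BT-T against N, Igtp fell (2.9% of all tested genes) and no other type II gene was called, and the median was -0.91. With 8.57% of all tested genes called there in either direction, 1 of 10 was near the background. Whether the 2 classes differed in response was not tested. Both tumour comparisons share the 4 N libraries.

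Counted by libraries alone, every BTPRZ-T library was below every N library for 11 type I and 2 type II genes (7.64% of all tested genes), and every BTPRZ-T library was above every N library for 1 type II gene (6.88%). Every BT-T library was below every N library for 18 type I and 3 type II genes (9.02%), and above every N library for 1 type II gene (13.4%). Without N replicate 2, the calls in BTPRZ-T came to 17 type I genes that fell and 2 that rose, and to 2 type II genes that fell and 1 that rose. The same fit called 32.3% of all tested genes in BTPRZ-T, 15.7% lower and 16.6% higher. Without it, the calls in BT-T came to 20 type I genes and 2 type II genes, all lower, where 13.5% of all tested genes were called, 5.7% lower and 7.79% higher. Dropping other single libraries took the type I count in BTPRZ-T down to 4 without N replicate 1, 5 without BTPRZ-T replicate 1 and 6 without BTPRZ-T replicate 2 or 4. In BT-T it came down to 10 without BT-T replicate 2 and 11 without BT-T replicate 3. Calls that held without any 1 library were those of 6 members in BTPRZ-T (Isg15, Ifit2, Zbp1, Rsad2, Igtp and Ido1) and of 11 in BT-T (Isg15, Ifit1, Ifit2, Oas2, Zbp1, Irf7, Rsad2, Cmpk2, Mx2, Rtp4 and Igtp).

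**Figure D1:**
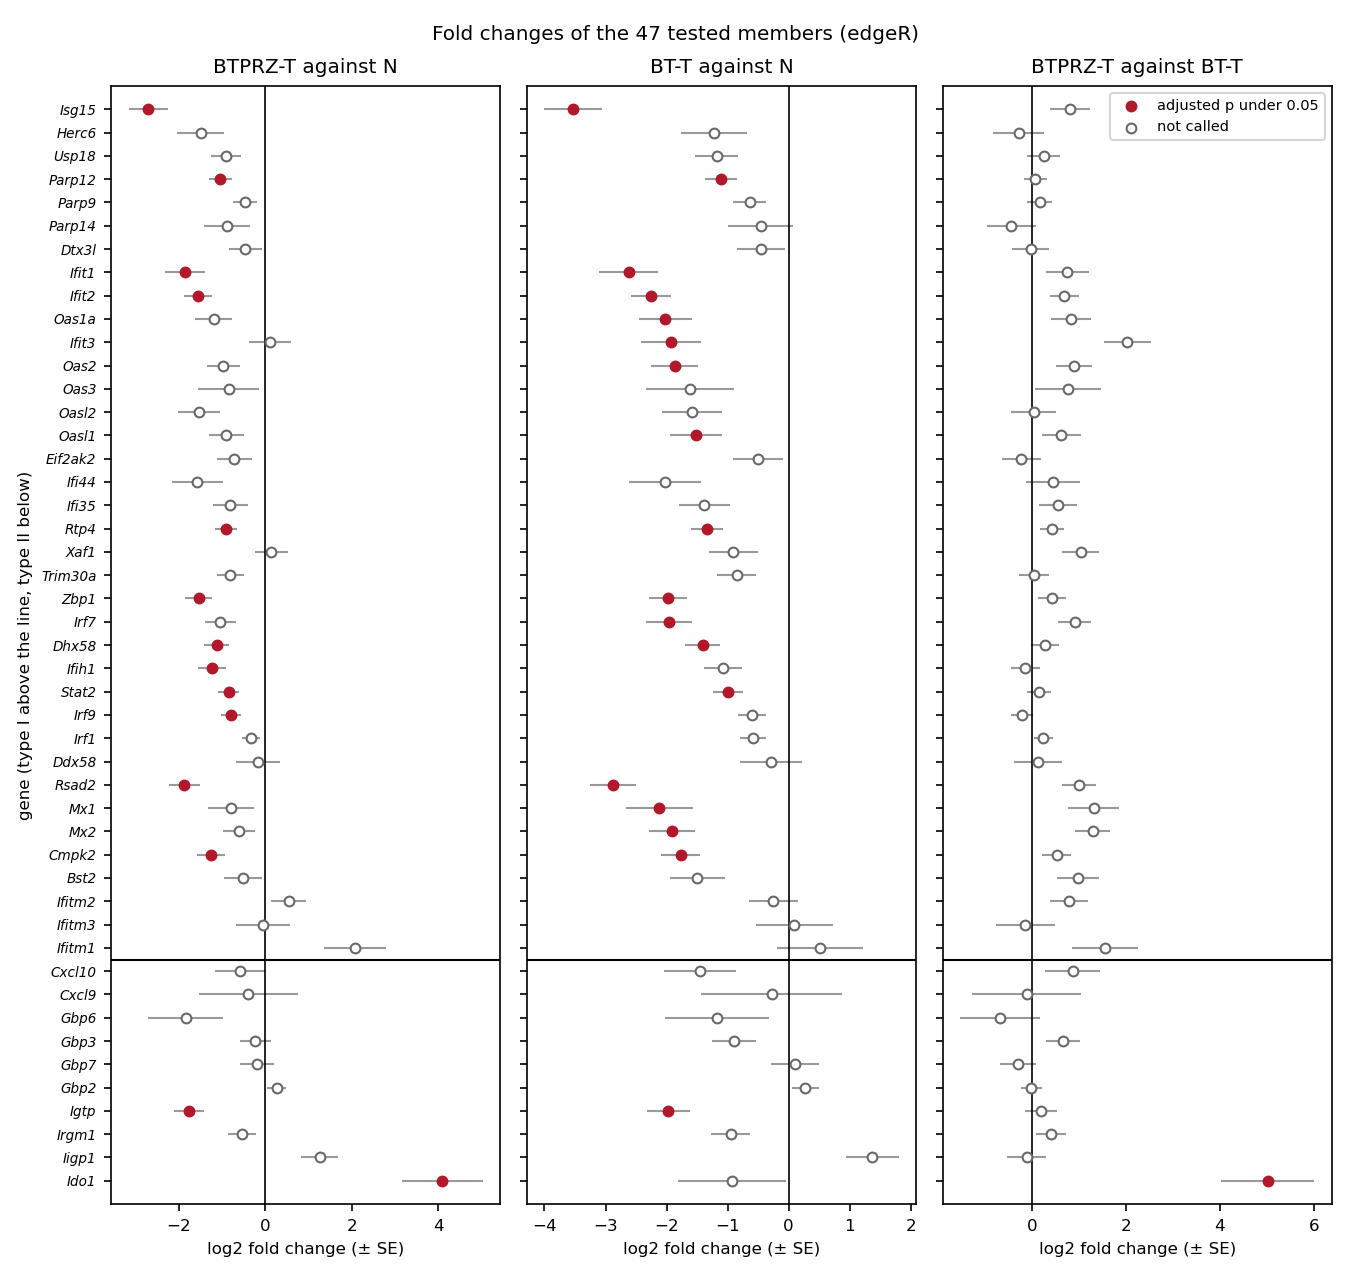
Log2 fold changes (horizontal axis) with standard errors for the 47 tested members, with panels for BTPRZ-T over N, for BT-T over N and for BTPRZ-T over BT-T. Filled points are called at an adjusted p under 0.05: 12 type I genes in the left panel and 17 in the middle panel, all left of 0, and none in the right panel, where Ido1 at the bottom is the only call.

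**Figure D2:**
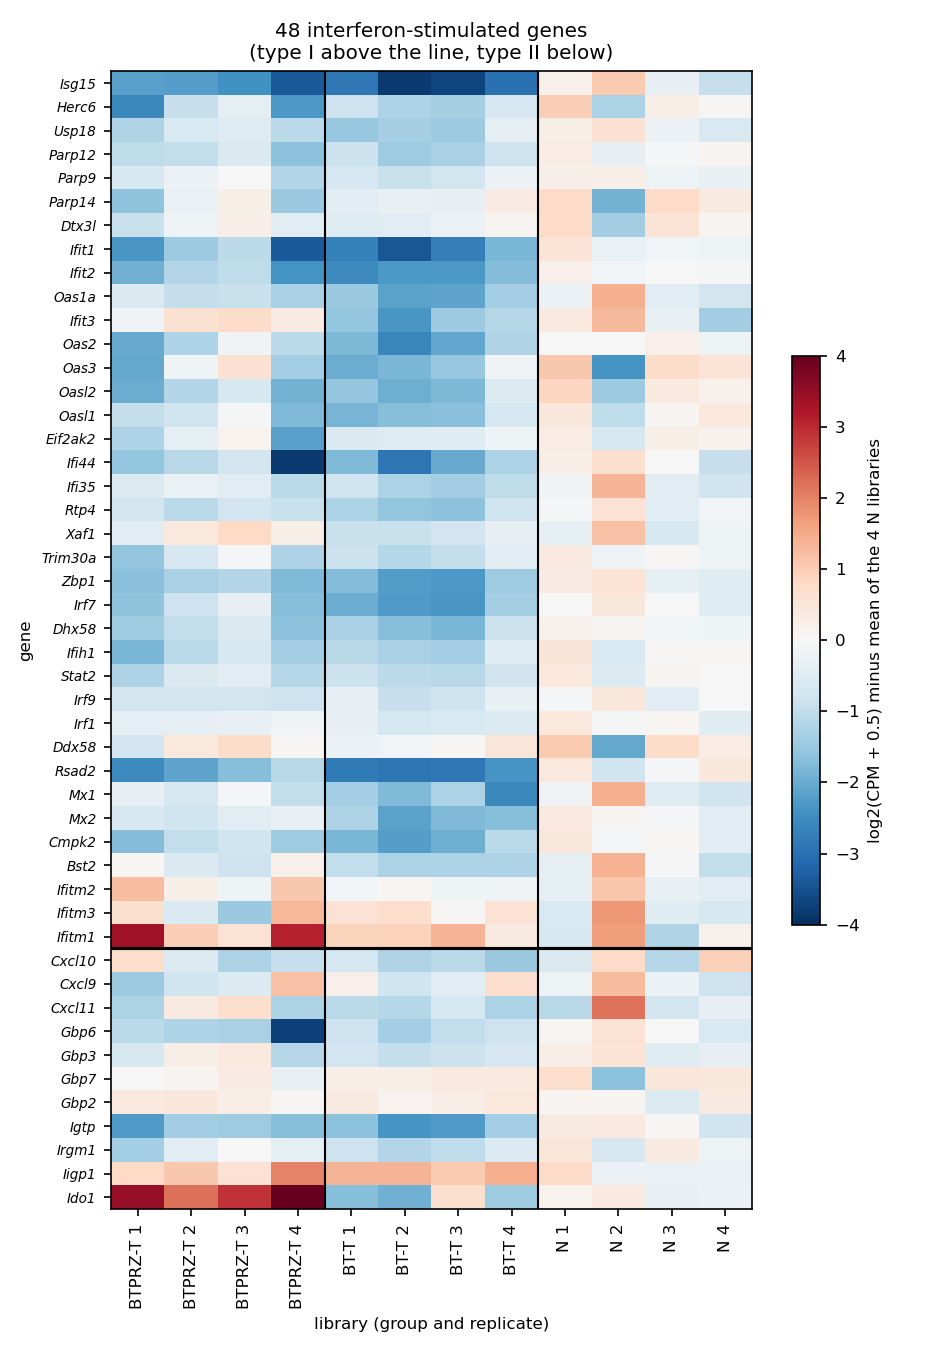
Log2(CPM + 0.5) of all 48 members in each library minus the mean of the 4 N libraries (colour), with BTPRZ-T, BT-T and N libraries from left to right. Isg15, Ifit1 and Rsad2 are blue in all 8 tumour libraries, Ido1 is red in all 4 BTPRZ-T libraries, and N replicate 2 departs from the other N libraries in both directions.

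The levels of the members spanned a wide range, compared here as mean CPM per kilobase of the longest transcript. Ifitm2, a membrane protein that hinders virus entry, was the highest in every group, at 491 in BTPRZ-T, 284 in BT-T and 337 in N. Over all 4 N libraries, Ifitm3 (232), Isg15 (122), Irf7 (118) and Oasl2 (108) came next in N, all over 100 per kilobase. Per kilobase, Isg15 was at 18.6 in BTPRZ-T and 10.5 in BT-T. The order in N depended on N replicate 2. Without it, mean CPM in N went from 157.5 to 79.43 for Ifitm3 and from 91.96 to 66.48 for Isg15. That of Irf7 went from 382.9 to 340.8, and that of Oasl2 from 335.6 to 412.3. Cxcl9 and Cxcl11 were the lowest, under 0.4 per kilobase in each group.

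The ISG15 system attaches the ubiquitin-like protein ISG15 to other proteins and removes it again. Isg15 itself had 17.4, 17, 14.5 and 7.38 CPM in BTPRZ-T, 10.7, 5.26, 5.91 and 9.88 CPM in BT-T and 92.7, 168, 64.5 and 42.2 CPM in N. All 8 tumour libraries lay below all 4 N libraries, and N replicate 2 was the highest of all. Isg15 fell in BTPRZ-T with a log2 fold change of -2.71 ± 0.45 (edgeR adjusted p = 0.00249) and in BT-T with a log2 fold change of -3.53 ± 0.47 (adjusted p = 0.000914). Without N replicate 2 these values were -2.24 (adjusted p = 0.00116) and -3.06 (adjusted p = 0.000485).

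Usp18, the protease that takes ISG15 off its targets and also damps IFNAR2 signalling, had 14.7, 22.1, 23.7 and 15.9 CPM in BTPRZ-T, 11.6, 13.2, 12.2 and 26.8 CPM in BT-T and 40.5, 52.2, 29.2 and 22 CPM in N. Herc6, the main ISG15 ligase in mice, had 4.32, 14.6, 22 and 5.37 CPM in BTPRZ-T, 15.6, 11.9, 11 and 17.7 CPM in BT-T and 56.1, 11.5, 33.7 and 29.2 CPM in N. Both genes averaged less in the tumours, but the groups overlapped, for Herc6 because N replicate 2 was as low as the tumours. Neither was called (edgeR adjusted p = 0.116 and 0.0997 in BTPRZ-T, 0.059 and 0.193 in BT-T). Usp18 was called lower in BT-T without BT-T replicate 4 or N replicate 4 (adjusted p of 0.0223 to 0.0384), and Herc6 in BTPRZ-T without BTPRZ-T replicate 3 or N replicate 2 (0.0171 to 0.0407).

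Effectors that act on viral RNA made up 9 members, of which 2 fell in BTPRZ-T (6.18% of all tested genes) and 6 in BT-T (2.9%). Ifit1, which binds RNA whose cap lacks the marks of the cell's own, had 37.8, 70.3, 91.8 and 18.5 CPM in BTPRZ-T, 29.1, 17.5, 28.8 and 53.4 CPM in BT-T and 283, 161, 178 and 168 CPM in N. Ifit2, a related protein that also binds RNA, had 12, 20.6, 22.8 and 8.55 CPM in BTPRZ-T, 7.74, 9.11, 9.12 and 13.7 CPM in BT-T and 54.2, 44.1, 46.4 and 44.4 CPM in N. No tumour library reached the lowest N library for either gene, and N replicate 2 lay close to the other N libraries for Ifit2. Ifit1 fell in BTPRZ-T with a log2 fold change of -1.86 ± 0.47 (edgeR adjusted p = 0.0233) and in BT-T with a log2 fold change of -2.62 ± 0.48 (0.00549). The BTPRZ-T call was lost without BTPRZ-T replicate 1 or N replicate 1 (adjusted p of 0.0623 to 0.0673). Ifit2 fell in BTPRZ-T with a log2 fold change of -1.56 ± 0.32 (adjusted p = 0.00797) and in BT-T with a log2 fold change of -2.25 ± 0.33 (0.00146).

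Ifit3, a further member of this family, had 22.7, 38.5, 42.2 and 32.2 CPM in BTPRZ-T, 8.33, 4.62, 8.91 and 11.2 CPM in BT-T and 33.5, 62.7, 20.6 and 9.25 CPM in N. The BTPRZ-T libraries lay inside the wide range of N and above every BT-T library. Ifit3 was not called in BTPRZ-T against N (edgeR adjusted p = 0.933) and fell in BT-T with a log2 fold change of -1.93 ± 0.49 (0.0309). That call was lost without any 1 of the BT-T replicates or N replicate 1 (adjusted p of 0.0564 to 0.106). Ifit2 and Ifit3 are neighbours on chromosome 19, 7.11 kb apart, and share related sequence, and reads that map to several places were not counted, so each rests on its own uniquely placed reads.

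The oligoadenylate synthetases sense viral RNA and switch on an RNA-degrading enzyme. Oas2 had 19.8, 34, 73.8 and 38.6 CPM in BTPRZ-T, 22.9, 12.8, 18.6 and 35 CPM in BT-T and 81.5, 80.9, 92.5 and 71 CPM in N. All BT-T libraries were below all N libraries, and BTPRZ-T replicate 3 alone reached the N range. Oas2 fell in BT-T with a log2 fold change of -1.87 ± 0.39 (edgeR adjusted p = 0.0108) and was not called in BTPRZ-T (0.124), where it was called without BTPRZ-T replicate 3 (0.0265).

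Oas1a, and Oasl1, which in mice represses Irf7 translation, also fell in BT-T and were not called in BTPRZ-T. Oas1a averaged 71.5 ± 14.7 CPM in BTPRZ-T, 40.2 ± 11.5 CPM in BT-T and 163 ± 131 CPM in N, with N replicate 2 at 357.8 CPM. Its log2 fold change in BT-T was -2.02 ± 0.44 (edgeR adjusted p = 0.0145) and -1.29 without N replicate 2, and the call was lost without BT-T replicate 2 or 3 (adjusted p of 0.0553 to 0.0605). Oasl1 averaged 63.1 ± 29.3 CPM in BTPRZ-T, 40.9 ± 17.2 CPM in BT-T and 118 ± 44.8 CPM in N. Its change in BT-T was -1.52 ± 0.42 (adjusted p = 0.0402), lost without BTPRZ-T replicate 1 or 2, BT-T replicate 1, 2 or 3, or N replicate 1, 3 or 4 (adjusted p of 0.0526 to 0.132), and Oasl1 was called lower in BTPRZ-T without N replicate 2 (0.0309).

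Oas3, Oasl2 and Eif2ak2, the kinase that stops translation when viral RNA is present, were not called in either tumour. Oas3 had 16.3 CPM in N replicate 2 and 127.7 to 185.0 CPM in the other N libraries, and Oasl2 had 105.8 CPM there and 327.1 to 528.2 CPM in the others. With N replicate 2 left out, Oasl2 was called lower in BTPRZ-T (adjusted p = 0.00491) and in BT-T (0.00831), and Oas3 in BT-T alone (0.0427, against 0.125 in BTPRZ-T).

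Among 8 sensors and regulators, 5 fell in BTPRZ-T (6.18% of all tested genes) and 4 in BT-T (2.9%). Zbp1, a sensor of nucleic acid in the Z form that can start necroptosis, had 20.5, 26.8, 29 and 19.2 CPM in BTPRZ-T, 19.6, 13.6, 13 and 24.6 CPM in BT-T and 82.6, 97.8, 50.8 and 46.8 CPM in N. No tumour library came near the lowest N library. Zbp1 fell in BTPRZ-T with a log2 fold change of -1.54 ± 0.31 (edgeR adjusted p = 0.00721) and in BT-T with a log2 fold change of -1.97 ± 0.31 (0.00248).

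Irf7, the transcription factor that amplifies interferon alpha production, had 122, 208, 298 and 115 CPM in BTPRZ-T, 93.6, 77.4, 74.1 and 149 CPM in BT-T and 378, 509, 379 and 265 CPM in N. The BT-T and N libraries did not overlap, while BTPRZ-T replicate 3 exceeded N replicate 4. Irf7 fell in BT-T with a log2 fold change of -1.96 ± 0.37 (edgeR adjusted p = 0.00594) and was not called in BTPRZ-T (0.0791), where it was called without BTPRZ-T replicate 3 (0.0306). Dhx58, a helicase that tunes the RNA sensors, had 16.3, 22.2, 30.0 and 14.1 CPM in BTPRZ-T, 17.7, 13.4, 12.4 and 24.4 CPM in BT-T and 50.7, 48.1, 41.8 and 39.4 CPM in N. No tumour library reached the N range. Dhx58 fell in BTPRZ-T with a log2 fold change of -1.13 ± 0.29 (edgeR adjusted p = 0.0262) and in BT-T with a log2 fold change of -1.41 ± 0.29 (0.0109). The BTPRZ-T call was lost without BTPRZ-T replicate 1, 2 or 4 or N replicate 1 or 3 (0.0511 to 0.0722), and the BT-T call without BT-T replicate 2 (0.0501).

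Stat2 and Irf9 encode parts of the complex that drives type I genes. Stat2 averaged 55.8 ± 15.6 CPM in BTPRZ-T, 50.4 ± 5.01 CPM in BT-T and 100.4 ± 26.3 CPM in N, and fell in both tumours (edgeR, -0.85 ± 0.25, adjusted p = 0.0464, and -0.99 ± 0.25, adjusted p = 0.0292). Irf9 averaged 56.8 ± 2.13 CPM in BTPRZ-T, 65.1 ± 14.6 CPM in BT-T and 98.4 ± 25 CPM in N, and fell in BTPRZ-T (-0.79 ± 0.23, adjusted p = 0.0401) but was not called in BT-T (0.131). These calls were near the threshold. That of Stat2 in BTPRZ-T was lost without any 1 of 10 libraries, all but BTPRZ-T replicate 3 and N replicate 2 (0.0693 to 0.144), and in BT-T without any 1 of the BT-T replicates or N replicate 1 or 3 (0.0631 to 0.103). The Irf9 call was lost without any 1 of 10 libraries, all but N replicates 2 and 3 (0.0537 to 0.0888).

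The RNA sensor gene Ifih1 (MDA5) averaged 55.9 ± 18.9 CPM in BTPRZ-T, 61.7 ± 18.6 CPM in BT-T and 131 ± 40.6 CPM in N. It fell in BTPRZ-T (edgeR, -1.23 ± 0.32, adjusted p = 0.0251) and missed the threshold in BT-T (-1.08 ± 0.31, 0.0518). The BTPRZ-T call was lost without BTPRZ-T replicate 1, 2 or 4 or N replicate 1 or 3 (0.0531 to 0.0792), and Ifih1 was called in BT-T without BTPRZ-T replicate 1 or 3, BT-T replicate 4 or N replicate 2 (0.0123 to 0.0454). Ddx58 (RIG-I), the other main RNA sensor, averaged 49.1 ± 19.7 CPM in BTPRZ-T, 44.8 ± 10.6 CPM in BT-T and 54.9 ± 33.2 CPM in N, with 9.75 CPM in N replicate 2, and was not called (0.899 and 0.785). Irf1, a transcription factor shared by both interferon pathways, was not called either (0.356 and 0.109).

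Effectors that act on the entry, assembly or replication of viruses made up 8 members. Of these, 2 fell in BTPRZ-T (6.18% of all tested genes) and 4 in BT-T (2.9%). Rsad2, which makes a chain-ending nucleotide and is also called viperin, had 9.36, 13, 17.3 and 26.4 CPM in BTPRZ-T, 7.67, 7.25, 7.45 and 10.7 CPM in BT-T and 76.2, 32.5, 55.2 and 79.2 CPM in N. Cmpk2, a mitochondrial nucleotide kinase encoded beside it, had 12.5, 21.4, 24.7 and 15.7 CPM in BTPRZ-T, 11.9, 9.01, 10.7 and 20.0 CPM in BT-T and 58.6, 40.7, 45.5 and 31.7 CPM in N. All tumour libraries were below all N libraries for both neighbours, which lie 12.8 kb apart on chromosome 12. Rsad2 fell in BTPRZ-T with a log2 fold change of -1.88 ± 0.36 (edgeR adjusted p = 0.00589) and in BT-T with a log2 fold change of -2.88 ± 0.38 (0.000852). Cmpk2 fell in BTPRZ-T with a log2 fold change of -1.25 ± 0.32 (0.0241) and in BT-T with a log2 fold change of -1.77 ± 0.32 (0.00507), and its BTPRZ-T call was lost without BTPRZ-T replicate 1 or 4 or N replicate 1 or 3 (0.0554 to 0.0771).

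Mx1 and Mx2 encode dynamin-like GTPases that trap viral components. Mx2 had 5.23, 4.59, 6.0 and 6.68 CPM in BTPRZ-T, 3.27, 1.51, 2.08 and 2.23 CPM in BT-T and 11.2, 9.14, 8.04 and 5.94 CPM in N. BT-T stood below both other groups without overlap, and BTPRZ-T overlapped N. Mx2 fell in BT-T with a log2 fold change of -1.91 ± 0.37 (edgeR adjusted p = 0.00732) and was not called in BTPRZ-T (0.331). Mx1 averaged 7.32 ± 2.16 CPM in BTPRZ-T, 2.93 ± 1.22 CPM in BT-T and 12.8 ± 10.7 CPM in N, with 28.6 CPM in N replicate 2, and fell in BT-T (-2.12 ± 0.55, adjusted p = 0.0325), a call lost without any 1 of the BT-T replicates or N replicate 1 (0.0536 to 0.105).

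The 3 Ifitm genes, whose short membrane proteins block the fusion of viruses, and Bst2, which tethers budding virions, were not called in either tumour. Ifitm1 had 122, 23.3, 17.1 and 99.5 CPM in BTPRZ-T, 21.7, 21.9, 30.4 and 14.6 CPM in BT-T and 7.08, 37.6, 4.73 and 12.9 CPM in N. BTPRZ-T replicates 1 and 4 were far above the other BTPRZ-T libraries, and N replicate 2 was above the other N libraries. Ifitm3 had 184, 79.5, 41.8 and 301 CPM in BTPRZ-T, 178, 191, 122 and 178 CPM in BT-T and 77.8, 392, 84.7 and 75.8 CPM in N, with the same 3 libraries on top of their groups. Once N replicate 2 was left out, Ifitm1 and Ifitm2 were called higher in BTPRZ-T (edgeR, 2.99, adjusted p = 0.00696, and 1.08, adjusted p = 0.0171), and Ifitm3 was not (0.174).

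Of 5 other type I genes, 1 fell in each tumour (6.18% of all tested genes in BTPRZ-T and 2.9% in BT-T). Rtp4, which encodes a receptor chaperone, had 49.2, 38.2, 48.2 and 43.3 CPM in BTPRZ-T, 33.6, 26.9, 26 and 46.3 CPM in BT-T and 78.9, 122, 61.2 and 75.1 CPM in N. No tumour library reached the N range. Rtp4 fell in BTPRZ-T with a log2 fold change of -0.91 ± 0.26 (edgeR adjusted p = 0.038) and in BT-T with a log2 fold change of -1.34 ± 0.26 (0.00727). The BTPRZ-T call was lost without any 1 of the BTPRZ-T replicates, BT-T replicates 1 to 3 or N replicates 1 and 4 (0.0504 to 0.104).

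Ifi44 had 17.3, 23.6, 30.4 and 3.1 CPM in BTPRZ-T, 14.7, 6.48, 12.3 and 20.8 CPM in BT-T and 61.2, 81.6, 51.2 and 26.6 CPM in N. Ifi35 had 33.6, 40.3, 36.5 and 23 CPM in BTPRZ-T, 28.2, 19.9, 18.2 and 23.9 CPM in BT-T and 44.1, 126, 36.2 and 28.2 CPM in N. For Ifi44 the BT-T libraries were all below N, and for Ifi35 the groups overlapped with N replicate 2 far above the rest. Neither was called (edgeR adjusted p = 0.103 and 0.246 in BTPRZ-T, 0.0516 and 0.0634 in BT-T). Ifi44 was called lower in BT-T without BTPRZ-T replicate 4 or N replicate 4 (0.0108 to 0.0407), and Ifi35 without N replicate 4 (0.0324). Trim30a and Xaf1 were not called in either tumour (adjusted p from 0.124 to 0.888).

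In the group of ADP-ribosyltransferases and their partner Dtx3l, a ubiquitin ligase, Parp12 fell in both tumours. It had 74.8, 75.9, 100.4 and 47.7 CPM in BTPRZ-T, 82.8, 55.6, 60.7 and 84.2 CPM in BT-T and 186, 119.9, 145 and 162 CPM in N. No tumour library reached the N range. The log2 fold change of Parp12 was -1.04 ± 0.26 in BTPRZ-T (edgeR adjusted p = 0.0213) and -1.11 ± 0.26 in BT-T (0.0191), lost in BTPRZ-T without BTPRZ-T replicate 2 or N replicate 1 (0.0554 to 0.0674) and in BT-T without BT-T replicate 2 or 3 or N replicate 1 (0.0621 to 0.0815).

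Parp9, the direct partner of Dtx3l, had 77, 102, 121 and 53.9 CPM in BTPRZ-T, 75.9, 65.3, 71.8 and 102 CPM in BT-T and 141, 146, 105 and 97.4 CPM in N. Parp14 had 38.6, 99, 142 and 42.5 CPM in BTPRZ-T, 88.4, 98.2, 96.4 and 150.2 CPM in BT-T and 206, 31.9, 206 and 153 CPM in N. The groups overlapped for both, and N replicate 2 had the highest Parp9 and the lowest Parp14 of its group. Parp9, Parp14 and Dtx3l were not called (edgeR adjusted p from 0.174 to 0.655), and without N replicate 2, Parp14 and Dtx3l were called lower in BTPRZ-T (0.0347 and 0.0453). Dtx3l and Parp9 lie on opposite strands of chromosome 16 and overlap by 0.681 kb. The counts used are strand-specific.

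The type II genes open with the immunity-related GTPases, which attack the vacuoles of intracellular microbes. Igtp had 8.65, 16.3, 15.9 and 13.1 CPM in BTPRZ-T, 13.7, 7.99, 8.58 and 16.5 CPM in BT-T and 56, 56.9, 45.4 and 24.6 CPM in N. All tumour libraries lay below all N libraries. Igtp fell in BTPRZ-T with a log2 fold change of -1.76 ± 0.35 (edgeR adjusted p = 0.00676) and in BT-T with a log2 fold change of -1.97 ± 0.35 (0.00442), and both calls held without any 1 library.

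Irgm1, which restrains the other GTPases of the family, had 32.1, 60.3, 83.1 and 64.4 CPM in BTPRZ-T, 46.5, 36.6, 40.9 and 56.9 CPM in BT-T and 118, 52.7, 106 and 73 CPM in N. It overlapped between the groups and was not called (edgeR adjusted p = 0.322 in BTPRZ-T and 0.0895 in BT-T, 0.021 in BT-T without N replicate 2). Iigp1, an effector GTPase that coats and breaks vacuoles, had 5.23, 6.41, 4.46 and 12.5 CPM in BTPRZ-T, 7.98, 7.99, 6.37 and 8.51 CPM in BT-T and 5.12, 2.3, 2.25 and 2.23 CPM in N. All BT-T libraries and 3 of 4 BTPRZ-T libraries were above the highest N library, the opposite side from Igtp. Iigp1 missed the threshold in BTPRZ-T (1.26 ± 0.43, adjusted p = 0.0793) and in BT-T (1.37 ± 0.43, 0.0719). It was called higher without N replicate 1 in BTPRZ-T (0.0462), and without N replicate 1 or BTPRZ-T replicate 4 in BT-T (0.0242 to 0.0449).

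The guanylate-binding proteins assemble on microbes and their vacuoles, and edgeR called none of the 4 in either tumour (adjusted p from 0.147 to 0.917). At an unadjusted p under 0.05 there were 0 in BTPRZ-T and 1 in BT-T, Gbp3, against 3784 and 3582 of all 14860 tested genes. Gbp2 had 41.8, 43.7, 38.6 and 33 CPM in BTPRZ-T, 41.3, 35.1, 38.5 and 43.5 CPM in BT-T and 34.6, 34.2, 21.6 and 41 CPM in N. Gbp3 had 15.1, 28, 31.6 and 10.7 CPM in BTPRZ-T, 13.9, 12, 13.1 and 14.8 CPM in BT-T and 28.9, 35.4, 16.9 and 19 CPM in N. The tumours overlapped N for Gbp2, and for Gbp3 all BT-T libraries were below N. Gbp6 had 2.71, 2.35, 2.2 and 0 CPM in BTPRZ-T, 3.27, 2.09, 2.91 and 3.24 CPM in BT-T and 6.39, 9.54, 6.14 and 3.92 CPM in N. Gbp7 had 23.5, 24.8, 29.3 and 18.6 CPM in BTPRZ-T, 28.1, 28.1, 30.3 and 30.7 CPM in BT-T and 38.1, 7.04, 32.7 and 31.8 CPM in N. For Gbp6 every tumour library was below every N library at low levels, and for Gbp7 the groups overlapped because N replicate 2 was far below the rest. Gbp7 was called lower in BTPRZ-T once N replicate 2 was left out (0.0417).

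Cxcl9, Cxcl10 and Cxcl11 encode chemokines that draw T and NK cells through CXCR3, and were all low. Cxcl10 had 12.9, 5.17, 3.03 and 3.84 CPM in BTPRZ-T, 4.63, 3.12, 3.41 and 2.43 CPM in BT-T and 5.07, 13.6, 3.25 and 15.5 CPM in N. Cxcl9 had 0, 0.287, 0.441 and 2.58 CPM in BTPRZ-T, 1.08, 0.292, 0.50 and 1.72 CPM in BT-T and 0.691, 2.77, 0.65 and 0.27 CPM in N. The groups overlapped for both, and neither was called (edgeR adjusted p of 0.597 and 0.891 in BTPRZ-T, 0.151 and 0.916 in BT-T). Cxcl11, which was not tested, had 49, 9 and 85 reads in BTPRZ-T, BT-T and N, and N replicate 2, at 4.94 CPM, gave most of the reads in N.

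Ido1 was the only member that edgeR called higher in a tumour with all libraries in the fit. It encodes the enzyme that starts the breakdown of tryptophan to kynurenine, which is known to restrain T cells. Ido1 had 26.8, 10.6, 17.5 and 80.4 CPM in BTPRZ-T, 0.244, 0.146, 3.33 and 0.405 CPM in BT-T and 2.19, 2.71, 1.48 and 1.55 CPM in N. Every BTPRZ-T library was above every BT-T and N library, with replicate 4 the highest, and in BT-T only replicate 3 exceeded 1 CPM. Ido1 rose in BTPRZ-T against N with a log2 fold change of 4.09 ± 0.94 (edgeR adjusted p = 0.0151, from 0.00267 to 0.0486 when 1 library was left out) and was not called in BT-T (0.569).

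**Figure D3:**
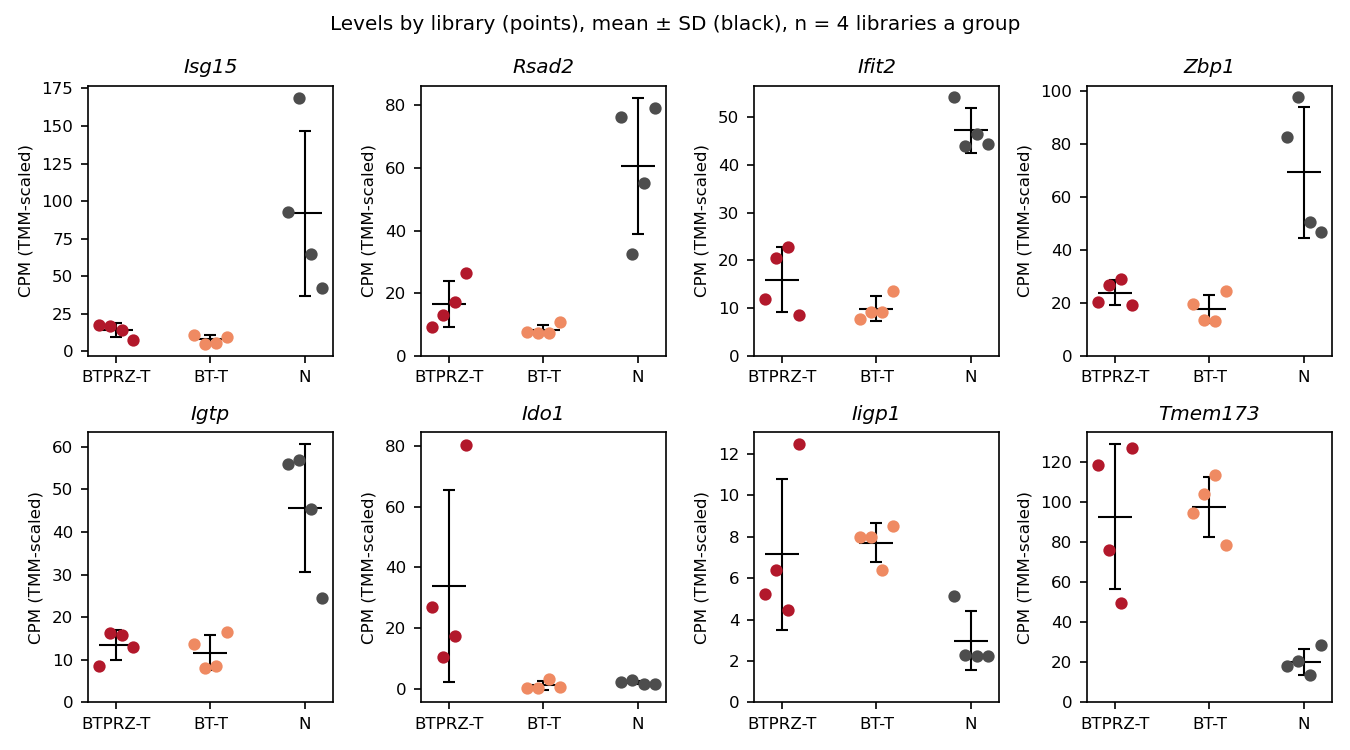
CPM of 7 members and of Tmem173 (STING) in each library (points) with mean ± SD over 4 libraries, for BTPRZ-T, BT-T and N from left to right. Isg15, Rsad2, Ifit2, Zbp1 and Igtp are lower in all tumour libraries than in all N libraries, Tmem173 is higher in all of them, and Ido1 is high in BTPRZ-T alone.

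Set directly against BT-T, BTPRZ-T had 1 called member, Ido1, where 0.754% of all tested genes were called in either direction, 0.155% higher and 0.599% lower. Ido1 was higher in BTPRZ-T with a log2 fold change of 5.02 ± 0.99 (edgeR adjusted p = 0.0438). The call was lost without any 1 of BTPRZ-T replicates 1, 2 and 3, BT-T replicates 1, 2 and 4 and N replicates 1, 3 and 4 (0.06 to 0.167). Its log2 fold change ran from 4.09 to 6.97 over the 12 omissions. No type I gene was called, and 10 of 37 had an unadjusted p under 0.05, as had 2564 of all 14860 tested genes. DESeq2 called 2, both higher, and its count over all genes is given with the other settings below.

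Of the 37 type I genes, 30 had a log2 fold change above 0 and the median was 0.45, against -0.03 over all tested genes. No member had every BTPRZ-T library below every BT-T library (12.7% of all tested genes). For 6 of 47 tested members, 5 type I genes and Ido1, every BTPRZ-T library was above (11.5%), which was near the background. The 5 were Ifit3, Oas1a, Mx1, Mx2 and Bst2. Of these 5, Ifit3 differed most (2.03 ± 0.50, edgeR adjusted p = 0.0828), followed by Mx1 (1.32 ± 0.54, 0.244) and Mx2 (1.30 ± 0.37, 0.107). Without N replicate 2, which enters this comparison only through the shared fit, 7 type I genes were called, all higher in BTPRZ-T: Ifit3 (0.00808), Mx2 (0.0244), Bst2 (0.0258), Oas1a (0.0265), Rsad2 (0.0352), Mx1 (0.0372) and Xaf1 (0.0177). That fit called 18% of all tested genes between the tumours (9.81% higher and 8.23% lower). Without N replicate 4, Ifit3 alone was called (0.0484).

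The ligand genes that were looked up were near the detection limit. They were 11 chosen interferon genes, among them Ifnb1, Ifna1, Ifna2, Ifna4, Ifna5, Ifng, Ifnl2 and Ifnl3, and other interferon genes were not examined. None had enough reads to be tested and 6 had no read in any library. Reads that map to several places were counted for no gene, so reads shared between related interferon genes would be missing. Over all 11 there were 9 reads in BTPRZ-T, 5 in BT-T and 2 in N, and the highest value was 0.165 CPM, for Ifnb1 in BTPRZ-T replicate 3. Ifng had 0 reads in each group, which allows up to 0.0403 CPM in BTPRZ-T, 0.035 CPM in BT-T and 0.0419 CPM in N (3 reads over the group's gene reads, counting error only).

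Of 6 receptor genes, 1 was called: Ifnar2, a chain of the type I receptor, rose in both tumours. Of all tested genes, 5.66% rose in BTPRZ-T and 5.67% in BT-T. Ifnar2 had 33.4, 25.5, 28 and 53.1 CPM in BTPRZ-T, 31.5, 37.1, 35.7 and 38.9 CPM in BT-T and 11.3, 26.1, 11.8 and 11.5 CPM in N. The BT-T libraries were all above N, while N replicate 2 exceeded 1 BTPRZ-T library. Its log2 fold change was 1.21 ± 0.33 in BTPRZ-T (edgeR adjusted p = 0.0315) and 1.24 ± 0.33 in BT-T (0.0351). Without N replicate 2 the adjusted p was 0.00089 and 0.00146. The BTPRZ-T call was lost without BTPRZ-T replicate 1 or 4, BT-T replicate 2 or N replicate 1, 3 or 4 (0.0508 to 0.0923), and the BT-T call without any 1 of the BT-T replicates or N replicates 1, 3 and 4 (0.0566 to 0.097).

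The other type I chain, Ifnar1, averaged 87.6 ± 18.9 CPM in BTPRZ-T, 92.9 ± 10.3 CPM in BT-T and 53.8 ± 14.1 CPM in N and was not called (edgeR adjusted p = 0.0837 and 0.0673). With N replicate 2 left out it was called higher in both (0.0457 and 0.0468), and without BTPRZ-T replicate 4 in BT-T (0.0463). Ifngr1 averaged 255 ± 32.1 CPM in BTPRZ-T, 237 ± 26.8 CPM in BT-T and 219 ± 41.3 CPM in N, and Ifngr2 averaged 203 ± 25.2, 181 ± 13.6 and 169 ± 33.7 CPM in the same groups. The lambda receptor gene Ifnlr1 averaged 22.4 ± 11.2 CPM in BTPRZ-T, 25.4 ± 1.32 CPM in BT-T and 20.9 ± 10.9 CPM in N, and Il10rb 115 ± 15.4, 90.8 ± 4.2 and 85.8 ± 14.5 CPM. These 4 genes were not called (adjusted p from 0.176 to 0.937), and Il10rb was called higher in BTPRZ-T without N replicate 2 (0.0197).

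The 3 kinase genes were not called. Jak1 averaged 178 ± 38.4 CPM in BTPRZ-T, 230.0 ± 17.3 CPM in BT-T and 179.8 ± 64.4 CPM in N, Jak2 84.4 ± 36.2, 103 ± 11.6 and 96.1 ± 36.1 CPM, and Tyk2 51.8 ± 9.9, 46.9 ± 5.37 and 45.4 ± 12.8 CPM (edgeR adjusted p from 0.498 to 0.987).

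Among 15 genes of nucleic acid sensing and interferon induction, 1 rose in BTPRZ-T, and 3 rose and 1 fell in BT-T. Over all tested genes, 5.66% rose in BTPRZ-T, so 1 of 15 was near the background there, and 5.67% rose and 2.9% fell in BT-T. Tmem173, which encodes STING, the adaptor of cytosolic DNA sensing, had 118, 75.8, 49.7 and 127 CPM in BTPRZ-T, 94.7, 104, 113 and 78.4 CPM in BT-T and 18.2, 20.4, 13.5 and 28.5 CPM in N. All tumour libraries were above all N libraries, opposite to most type I members. Tmem173 rose in BTPRZ-T with a log2 fold change of 2.20 ± 0.32 (edgeR adjusted p = 0.0014) and in BT-T with a log2 fold change of 2.27 ± 0.32 (0.00139), and both calls held without any 1 library.

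Irf5, a transcription factor of myeloid cells, and Tlr9, the endosomal DNA receptor, rose in BT-T, and Ticam1, the adaptor of TLR3, fell there. Irf5 averaged 10.4 ± 4.59 CPM in BTPRZ-T, 16.6 ± 1.87 CPM in BT-T and 4.51 ± 2.1 CPM in N (BT-T against N 1.88 ± 0.41, edgeR adjusted p = 0.0142). Tlr9 averaged 2.25 ± 0.997 CPM in BTPRZ-T, 6.17 ± 2.64 CPM in BT-T and 0.676 ± 0.567 CPM in N (3.17 ± 0.89, 0.0445). Ticam1 averaged 35.4 ± 5.45 CPM in BTPRZ-T, 32.4 ± 3.55 CPM in BT-T and 62.3 ± 19.1 CPM in N (-0.94 ± 0.25, 0.0349). The Irf5 call was lost without N replicate 1 (0.0507). That of Tlr9 was lost without BTPRZ-T replicate 2 or 3, any 1 of the BT-T replicates or N replicate 1, 3 or 4 (0.0525 to 0.133), and that of Ticam1 without BTPRZ-T replicate 2, any 1 of the BT-T replicates or N replicate 1, 3 or 4 (0.0549 to 0.116). In BTPRZ-T, Irf5 was called higher without BTPRZ-T replicate 3 (0.044) and Ticam1 lower without N replicate 2 (0.00122).

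Of 9 genes that limit the response or clear nucleic acid, none was called in either tumour by edgeR, with 2 at an unadjusted p under 0.05 in each. Of all 14860 tested genes, 3784 in BTPRZ-T and 3582 in BT-T had an unadjusted p under 0.05. Adar, which edits RNA and hides it from the sensors, averaged 86.6 ± 32.2 CPM in BTPRZ-T, 95 ± 13 CPM in BT-T and 162 ± 57.9 CPM in N (adjusted p = 0.0987 and 0.174). Socs3, an inhibitor of cytokine receptors, averaged 46.4 ± 15.7 CPM in BTPRZ-T, 51.7 ± 10.2 CPM in BT-T and 17.5 ± 14.9 CPM in N (0.123 and 0.105). With N replicate 2 left out, Adar was called lower (0.00523 and 0.0183) and Socs3 higher (0.0127 and 0.0166) in BTPRZ-T and BT-T, and Adar in BTPRZ-T also without BTPRZ-T replicate 3 (0.0468). The nuclease genes Trex1 and Isg20 averaged 20.2 and 31.4 CPM in BTPRZ-T, 14.4 and 25.1 CPM in BT-T and 26.4 and 45.6 CPM in N.

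A list of 57 other interferon-induced genes served as a comparison, and 52 were tested. In BTPRZ-T, 3 fell and 3 rose (median log2 fold change -0.17), and in BT-T, 11 fell and 1 rose (median -0.38). Over all tested genes, 6.18% fell and 5.66% rose in BTPRZ-T, so 3 of 52 each way was near the background, and 2.9% fell and 5.67% rose in BT-T. By libraries alone, every BTPRZ-T library was below every N library for 5 of the 52 (7.64% of all tested genes). For 5 every one was above (6.88%). In BT-T these counts were 13 below (9.02%) and 12 above (13.4%). Irgm2, a further immunity-related GTPase gene, fell in BTPRZ-T with a log2 fold change of -1.84 ± 0.31 (edgeR adjusted p = 0.00262) and in BT-T with a log2 fold change of -1.44 ± 0.30 (0.0112, lost without BT-T replicate 2 at 0.0505). Apol9b had 3.48, 13, 10.6 and 10.9 CPM in BTPRZ-T, 2.27, 2.24, 2.87 and 5.07 CPM in BT-T and 29.5, 25, 28.2 and 14.2 CPM in N. Its near-identical copy Apol9a had 2.97, 9.67, 9.91 and 11.2 CPM in BTPRZ-T, 1.53, 1.22, 1.75 and 4.46 CPM in BT-T and 28.1, 13, 21.9 and 13.8 CPM in N. Both fell in BT-T (-2.96 ± 0.45, 0.00214, and -3.10 ± 0.54, 0.00387) and were not called in BTPRZ-T (0.0598 and 0.155; Apol9b was called there without N replicate 2 or 4, 0.0377 to 0.0485). All tumour libraries were below all N libraries for Apol9a, and likewise for Apol9b. Reads that map to both copies were counted for neither, so each level rests on uniquely placed reads. Oas1g, a close relative of Oas1a, fell in BTPRZ-T (-1.59 ± 0.47, 0.0468) and in BT-T (-2.45 ± 0.49, 0.00815). Its BTPRZ-T call was lost without any 1 of 10 libraries, all but N replicates 3 and 4 (0.0509 to 0.111).

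The 3 genes of that list called higher in BTPRZ-T were Ifi203 and Ifi204, of the p200 family of nucleic acid-binding proteins, and Slfn1, of the Schlafen family, and the other gene called lower was Helz2, which encodes a helicase. These 4 are named after their values were seen. Ifi203 averaged 27.6 ± 13.5 CPM in BTPRZ-T, 22.1 ± 5.32 CPM in BT-T and 8.38 ± 1.99 CPM in N, and rose in BTPRZ-T (1.72 ± 0.38, edgeR adjusted p = 0.0122) and in BT-T (1.40 ± 0.38, 0.0384). All tumour libraries were above all N libraries, and the BT-T call was lost without any 1 of 7 libraries (0.0583 to 0.114). Ifi204 averaged 16.9 ± 15.2 CPM in BTPRZ-T, 12.4 ± 1.99 CPM in BT-T and 3.85 ± 1.68 CPM in N, and rose in BTPRZ-T (2.14 ± 0.52, adjusted p = 0.0198), a call lost without N replicate 1, 3 or 4 (0.0528 to 0.0594). In BT-T it missed the threshold (0.0643) and was called higher without BTPRZ-T replicate 4 or N replicate 2 (0.00551 to 0.0268). Slfn1 averaged 4.11 ± 4.9 CPM in BTPRZ-T, 2.38 ± 0.681 CPM in BT-T and 0.333 ± 0.323 CPM in N, and rose in BTPRZ-T (3.59 ± 1.07, adjusted p = 0.0468), where replicate 4 alone had 11.26 CPM. That call was lost without any 1 of 10 libraries (0.0541 to 0.128). Helz2 averaged 83 ± 30.7 CPM in BTPRZ-T, 89.3 ± 10.5 CPM in BT-T and 218 ± 94.4 CPM in N, and fell in BTPRZ-T (-1.40 ± 0.37, adjusted p = 0.029, lost without any 1 of 6 libraries, 0.0619 to 0.0831) and in BT-T (-1.29 ± 0.37, 0.0498, lost without any 1 of 9 libraries, 0.0659 to 0.147).

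Markers of several cell types also differed between the tumours and normal colon. Over all tested genes, 6.18% fell and 5.66% rose in BTPRZ-T, and 2.9% fell and 5.67% rose in BT-T. Of 12 macrophage markers, 6 rose in BTPRZ-T and 7 in BT-T, among them C1qa and Itgam. Their summed level ranged over 439.6 to 3076 CPM in BTPRZ-T and 1266 to 2131 CPM in BT-T, against 211.7 to 711.3 CPM in N. Of 6 fibroblast markers, 3 rose in BTPRZ-T and 5 in BT-T. Of 8 mature colonocyte markers, 7 fell in each tumour, with summed levels of 600.6 to 1518 CPM in BTPRZ-T and 549.8 to 1936 CPM in BT-T, against 6618 to 9511 CPM in N. Of 7 general epithelial markers, 1 was called, Krt18, which rose in BTPRZ-T, and they summed to 7379 to 15830 CPM in BTPRZ-T and 8561 to 10260 CPM in BT-T, against 10090 to 12470 CPM in N. The part of these cell types in the levels of the interferon-stimulated genes was not tested.

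The summed level of the 37 type I members was 2034 to 2627 CPM in BTPRZ-T and 1484 to 2216 CPM in BT-T, against 3082 to 4285 CPM in N. No tumour library reached the lowest N library. The 11 type II members summed to 168.8 to 238.9 CPM in BTPRZ-T and 133.6 to 178.7 CPM in BT-T, against 213.2 to 295.0 CPM in N, where BTPRZ-T overlapped N. Among lymphocyte markers, the T cell genes Cd3e and Cd3d had 1 read in all libraries together, in N, and the NK cell gene Ncr1 had none. Cd4, which macrophages can also express, had 444, 962 and 372 reads in BTPRZ-T, BT-T and N. Il2rg, the common chain of several cytokine receptors, had 70, 78 and 50 reads in the same groups, and the NK cell gene Klrb1c had 8, 18 and 43. Cd8a of T cells had 2, 5 and 0 reads, and the B cell genes Ms4a1 and Cd79a had 4, 7 and 0 and 1, 0 and 1. The plasmacytoid dendritic cell gene Siglech, a mark of the cells known for making interferon alpha, had 85, 82 and 51 reads. All 6 genes listed for that cell type summed to 164.1 to 266.2 CPM in BTPRZ-T and 143.7 to 216.8 CPM in BT-T, against 104.8 to 147.9 CPM in N, but these sums came mostly from Tcf4 (6622, 13317 and 4368 reads in BTPRZ-T, BT-T and N), Ly6d (6112, 1716 and 41) and the member Bst2 (2687, 1634 and 3075). Pacsin1 and Ccr9, the other genes of the list, had 63, 226 and 228 and 12, 31 and 28 reads.

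**Figure D4:**
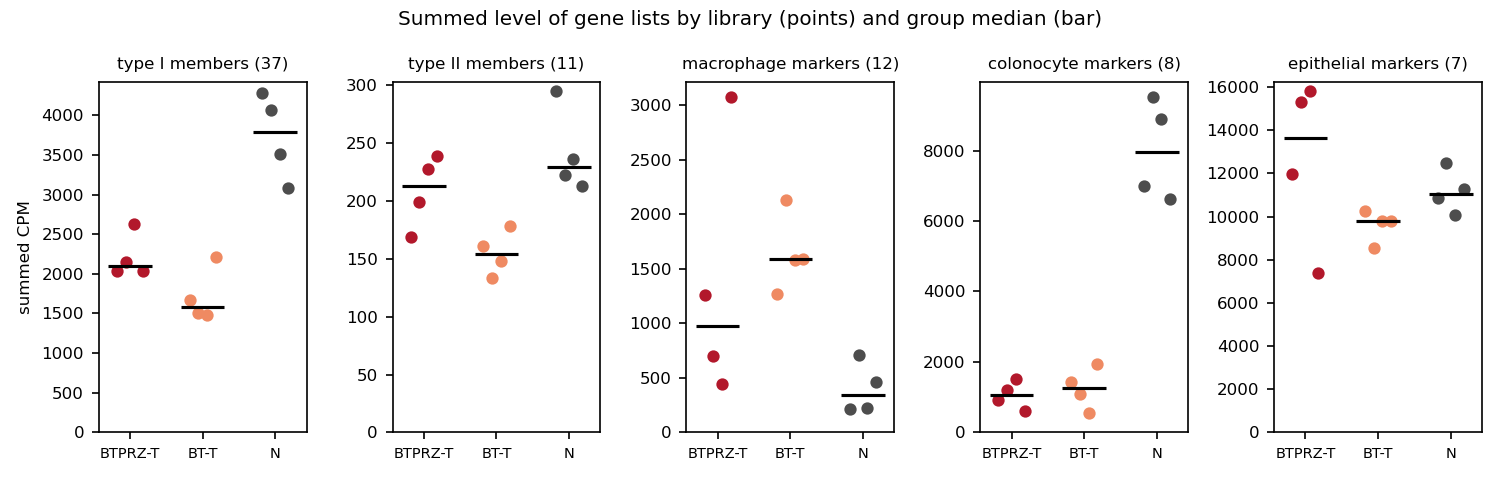
Summed CPM per library (points) and group median (bar) for the 37 type I members, the 11 type II members and markers of macrophages, mature colonocytes and epithelium, for BTPRZ-T, BT-T and N. The type I sums of the tumours, at most 2627 CPM, lie below all N libraries (at least 3082 CPM), the macrophage sums of 6 of 8 tumour libraries lie above all N libraries, and the colonocyte sums lie far below N.

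The libraries with few detected genes differed from the rest of their group along transcript length. Over the 47 tested members, the log2 ratio of N replicate 2 to the other N libraries had a Spearman correlation of -0.688 with the length of the longest transcript. For BTPRZ-T replicates 1 and 4, against replicates 2 and 3, it was -0.618 and -0.49. These correlations are across genes of shared libraries and describe them. The short members Ifitm1, Ifitm2, Ifitm3 and Bst2 were high in all 3 of these libraries, and the long members Oas3, Parp14 and Herc6 were low in them. These examples were picked after their values were seen, and not every member went this way. In BTPRZ-T replicate 4 the log2 ratio was -1.05 for the short Isg15 and 0.78 for the long Rsad2. The log2 fold changes correlated with length at -0.261 in BTPRZ-T against N (-0.479 without N replicate 2), at 0.062 in BT-T against N (-0.155 without it) and at -0.499 in BTPRZ-T against BT-T. Members called in both tumours include the short Isg15 (0.756 kb) and the long Rsad2 (4.19 kb), examples picked after their values were seen. The part of length or RNA quality in the results was not tested.

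**Figure D5:**
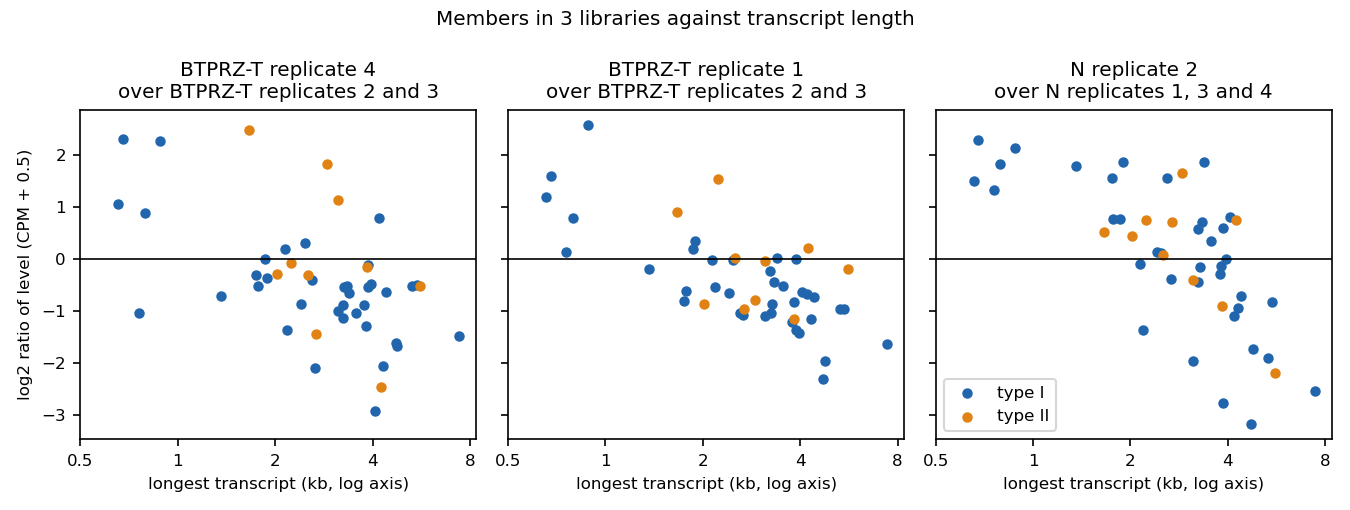
Log2 ratio of a library's CPM + 0.5 to the mean of other libraries of its group (vertical axis) against the longest transcript in kb (log axis), for members of both classes, in BTPRZ-T replicate 4, BTPRZ-T replicate 1 and N replicate 2. The points run downwards in each panel, with Spearman correlations of -0.49, -0.618 and -0.688.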

How the data were processed

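RNA was sequenced from 12 mouse colon libraries. The authors deposited read counts per gene symbol for each library, in an unstranded and 2 stranded columns; per the submitters' processing notes, bcl2fastq 2.20, STAR 2.4.2a, HTSeq, edgeR 3.16.5, limma and the mm10 build were used, and no source used here names the annotation. Of the stranded columns, that with the gene reads was used (0.819 to 0.994% of the reads fell on the opposite strand). Reads in no gene were 12.3 to 17.9% and ambiguous reads were 0.592 to 1.57%. Reads mapping to several places were counted for no gene, and their row gave 0 in each library. These rows were left out.

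Counts were fitted in edgeR 4.0.16 (R 4.3.3) with TMM factors, the default filter on low counts, 1 group term over all 12 libraries (common biological coefficient of variation 0.501) and quasi-likelihood tests. Benjamini-Hochberg adjustment ran over all 14860 genes tested, with a threshold of 0.05. The script was tested on simulated data. Alternatives were DESeq2 1.42.0, limma 3.58.1 voom with and without quality weights, other scalings and filters, a replicate block, a fit of only the 2 compared groups, the unstranded column, and leaving out each library or the 3 with the fewest detected genes.

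Members and lists were chosen with earlier results of these data known. Per-library values are given for all type II members, for the 3 members with the lowest adjusted p in each type I role group, and for listed pathway genes. Other members were named after their values were seen. Gene lengths are those of the longest GENCODE M21 transcript. Some listed genes are not reported here.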

Additional observations from a re-analysis of the deposited data

Results flagged for a closer look

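Of 144 sets of 4 values (48 members in 3 groups), 20 held a library far from the other 3, where chance flags about 1 in 20 groups. N replicate 2 stood high for 8 members, with 358 CPM of Oas1a, 28.6 of Mx1, 126 of Ifi35, 427 of Ifitm2, 392 of Ifitm3, 2.77 of Cxcl9, 4.94 of Cxcl11 and 70.9 of Xaf1, and low for Eif2ak2 (58.2 CPM). BT-T replicate 4 stood high for 5 members, with 78.2 CPM of Oas3, 66.6 of Oasl1, 10.7 of Rsad2, 26.8 of Usp18 and 150.2 of Parp14. N replicate 1 stood high for Ifit1 (283 CPM) and Iigp1 (5.12 CPM). In BT-T, Bst2 stood high in replicate 1 (19.9 CPM), Ifitm2 in replicate 2 (209 CPM) and Ido1 in replicate 3 (3.33 CPM). Irf9 stood low in BTPRZ-T replicate 4 (53.6 CPM).

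In the direct test between the 2 tumour genotypes, Ido1 was higher in BTPRZ-T than in BT-T by 5.02 on the log2 scale (edgeR adjusted p = 0.0438, higher in 4 of 4 BTPRZ-T libraries than in every BT-T library). The call was lost in 9 of 12 fits that each left out 1 library (adjusted p of 0.06 to 0.167; all but BTPRZ-T replicate 4, BT-T replicate 3 and N replicate 2) and with the replicate number as a block (0.0947).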

How the results depend on the processing

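In BTPRZ-T against N, 14 members were called (12 type I, 2 type II; 1760 genes in all), in BT-T against N 18 (17 and 1; 1274) and in BTPRZ-T against BT-T 1 (0 and 1; 112). Leaving out 1 library gave 7 to 22 members in BTPRZ-T against N (type I 4 to 19, type II 2 to 3, all genes 1076 to 4855), 11 to 22 in BT-T against N (type I 10 to 21, type II 1 to 2, all genes 624 to 2030) and 0 to 8 between the tumours (type I 0 to 7, type II 0 to 1, all genes 0 to 2714). DESeq2 called 22 members in BTPRZ-T against N (19 type I; 3048 genes), 3 type II members and 2394 genes in BT-T against N, and 3 members between the tumours (2 type I; 1217 genes). Voom with quality weights called 37, 40 and 27 members in these comparisons (type I 30, 35 and 23, type II 7, 5 and 4, all genes 8211, 6156 and 7734), and plain voom 266 genes between the tumours. The 2 compared groups alone gave 6 members in BTPRZ-T against N (4 type I; 647 genes), 2 type II members in BT-T against N, and 3 members between the tumours (2 type I; 1568 genes). Without BTPRZ-T replicates 1 and 4 and N replicate 2, which had the fewest detected genes, BT-T against N had 36 members (31 type I, 5 type II; 4359 genes), BTPRZ-T against N 5311 genes, and the tumours 18 members between them (15 type I, 3 type II; 3723 genes). The causes were not tested.

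With the replicate number as a block, 6 members were called in BTPRZ-T against N (4 type I; 1160 genes), 15 in BT-T against N (14 type I; 945 genes) and 0 between the tumours (0 type II; 1 gene), where Ido1 had an adjusted p of 0.0947. The numbers are only shared. Same-numbered libraries correlated at -0.415 to 0.397 in their deviations from the group means, and not every library correlated best with its own number. Single genes were followed over the settings only in comparisons where their unadjusted p was under 0.05 in the main fit. Of these values, 1678 kept their direction and side of the threshold, 146 newly passed it, 177 newly missed it and 0 changed direction. Weaker changes were not counted, and some reversed. Without N replicate 2, Bst2 in BTPRZ-T against N went from -0.51 to 0.20, and Gbp7 in BT-T against N from 0.10 to -0.22. Cxcl11 and the interferon ligands had too few reads to be tested.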
